A study of Mus musculus with 6 samples.

Results

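The 4 Hox gene clusters are described here by the methylation of their DNA along each cluster, in mouse bone marrow cells before and during culture with Flt3L, a growth factor under which marrow progenitors give rise to dendritic cells. The members are all cytosines of the deposited table that lie in 4 windows of the mm9 build: chr6:52100000-52215000 for Hoxa, chr11:96050000-96232000 for Hoxb, chr15:102745000-102870000 for Hoxc and chr2:74495000-74605000 for Hoxd. They came to 1485 of 652716 listed cytosines, with 405 in the Hoxa window, 371 in the Hoxb window, 293 in the Hoxc window and 416 in the Hoxd window. The windows were set by position, not by any measured value, though earlier results of these data were known when they were chosen. The gene list that goes with them holds 38 genes, 10 each in Hoxa and Hoxb and 9 each in Hoxc and Hoxd.

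Methylation was read by reduced representation bisulfite sequencing, in which DNA is cut with restriction enzymes, here MspI or TaqI, and treated with bisulfite, which converts unmethylated cytosines and leaves methylated ones. There were 6 samples from C57BL/6J mice, all labelled male, in 3 groups of 2. Day 0 was uncultured bone marrow (replicates 2 and 3). Day 4 was labelled Common Myeloid Progenitor (replicates 1 and 2) and day 7 was labelled Bone-marrow Derived Dendritic Cell (replicates 1 and 4). At days 4 and 7 the cells had grown in medium with supernatant from an SP2/0 line that secretes Flt3L. All live cells were taken at those days, per the labels, so the groups are mixed populations. A change in the mix of cells and a change within a cell type cannot be told apart. Expression was not measured, so the labelled cell types could not be checked against marker genes. The labels name no separate mice or cultures within a group, and the p-values reflect no more than the differences among these libraries, which could be technical.

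Hox genes encode homeodomain transcription factors that set position along the body axis in the embryo, and within each cluster the genes are ordered by their domain of expression. In blood formation, Hoxa9 and Hoxb4 are best known for roles in stem and progenitor cells, and Hoxa9 also for its part in myeloid leukaemia. Where the genes are silent, the clusters are a classic target of Polycomb repression, which in many tissues is found on CpG-rich DNA that stays free of methylation. In order of increasing position, RefSeq lists the Hoxa genes from Hoxa2 to Hoxa13, the Hoxb genes from Hoxb13 to Hoxb1, the Hoxc genes from Hoxc13 to Hoxc4 and the Hoxd genes from Hoxd13 to Hoxd1. No gene table of the mm9 build was used here. The levels below are therefore given by mm9 position, and no region is assigned to an exon, an intron or a gene's start.

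The assay sees only DNA near CCGG, the site of MspI, and TCGA, the site of TaqI, so the promoters are shown first with these sites in capitals. RefSeq promoters (GRCm38.p6, from 250 bases before to 50 bases after the gene's start) matched 22 of the 38 genes, with 24 promoters. Both motifs read the same on both strands and cannot overlap each other. CCGG occurred in 79.2% of these promoters against 52.8% of all 32851 mouse promoters of the same 300 bases, TCGA in 45.8% against 22%, and either in 91.7% against 60.5%. The median number of CpG sites was 14.5 against 7. The 5 printed span the range: Hoxa9 has 4 CpG sites, the lowest number among them, and Hoxa13 has 45, the highest. Hoxb4 holds TCGA alone, Hoxc4 is the only Hoxc promoter that matched, and Hoxd10 has 10 CCGG sites, the most of the 24. On GRCm38.p6 they lie at chr6:52227321-52227620 (minus strand), chr6:52260831-52261130 (minus strand), chr11:96318017-96318316 (plus strand), chr15:103034145-103034444 (plus strand) and chr2:74691641-74691940 (plus strand). These positions are of another build than the levels, so no level is tied to a printed promoter.
Hoxa9: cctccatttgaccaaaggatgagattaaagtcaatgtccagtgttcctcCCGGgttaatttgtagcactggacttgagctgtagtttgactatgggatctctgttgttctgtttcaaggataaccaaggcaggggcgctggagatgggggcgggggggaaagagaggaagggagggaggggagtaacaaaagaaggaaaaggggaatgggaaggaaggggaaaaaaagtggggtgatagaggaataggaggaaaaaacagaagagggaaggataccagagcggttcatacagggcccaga
Hoxa13: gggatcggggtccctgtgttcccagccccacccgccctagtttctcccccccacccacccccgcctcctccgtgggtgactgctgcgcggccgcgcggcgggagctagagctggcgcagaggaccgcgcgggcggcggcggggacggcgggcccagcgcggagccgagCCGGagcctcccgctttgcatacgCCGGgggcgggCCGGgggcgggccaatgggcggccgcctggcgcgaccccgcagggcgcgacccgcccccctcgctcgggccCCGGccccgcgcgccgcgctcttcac
Hoxb4: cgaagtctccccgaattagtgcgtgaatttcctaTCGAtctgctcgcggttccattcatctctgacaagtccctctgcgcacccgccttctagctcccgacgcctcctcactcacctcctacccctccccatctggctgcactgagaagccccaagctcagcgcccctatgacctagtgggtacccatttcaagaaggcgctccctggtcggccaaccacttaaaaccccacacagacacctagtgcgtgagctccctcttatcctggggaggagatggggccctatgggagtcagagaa
Hoxc4: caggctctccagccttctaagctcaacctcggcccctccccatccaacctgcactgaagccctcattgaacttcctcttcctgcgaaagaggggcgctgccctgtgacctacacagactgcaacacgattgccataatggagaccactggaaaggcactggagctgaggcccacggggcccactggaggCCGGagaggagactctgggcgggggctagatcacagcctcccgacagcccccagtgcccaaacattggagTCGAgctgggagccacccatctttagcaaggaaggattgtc
Hoxd10: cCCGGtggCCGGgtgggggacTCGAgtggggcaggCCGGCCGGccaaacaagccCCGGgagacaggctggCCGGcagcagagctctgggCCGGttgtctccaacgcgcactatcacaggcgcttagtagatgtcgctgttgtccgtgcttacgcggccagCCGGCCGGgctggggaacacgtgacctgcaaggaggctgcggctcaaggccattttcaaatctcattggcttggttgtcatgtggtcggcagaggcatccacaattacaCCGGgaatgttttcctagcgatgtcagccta

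Total reads over listed cytosines ran from 3641141 in day 7 replicate 4 to 10242334 in day 4 replicate 1, and the Hox windows held 7034 to 24088 of them. Runs of at least 3 cytosines with neighbours at most 100 bp apart, called regions here, took in 1262 of the 1485 Hox cytosines, and 223 stood alone. Of 177 Hox regions, 155 had at least 10 reads in each sample and 22 did not. A covered Hox region had a median length of 102 bp and a median of 7 cytosines. Reads are counted at each cytosine they cover, so 1 sequenced read can count more than once in a region. Median depth over all 177 Hox regions was 86 and 71 reads on day 0 and 87 and 56 on day 4. On day 7 it was 74 and 24. Day 7 replicate 4 was thus the shallowest library in these windows. The 2 day 7 libraries also stood apart on the X chromosome. Mean reads per X-linked cytosine were 0.650 to 0.688 of those per autosomal cytosine in the day 0 and day 4 libraries, but 1.005 and 1.07 in the day 7 libraries, which carry the same male label. A male carries the X chromosome once and a female carries it in a pair. The sex of the day 7 cells was not settled here, so day in culture and a difference of sex cannot be told apart in the comparisons with day 7. Reads called methylated on the mitochondrial genome, a background level, were 0.547% and 0.490% on day 0, 1.17% and 0.664% on day 4 and 2.28% and 1.76% on day 7. The parts of these differences between libraries in the Hox results were not tested. Day 4 against day 0 compares no day 7 library. Its regions, however, needed reads in the day 7 libraries too, and its region tests came from a fit of all 6 samples. The Hox windows drew like depth in every library, at 1.009 to 1.089 of the autosomal mean.

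The Hox clusters were largely unmethylated in every sample. With each region's level taken as its methylated reads over all its reads and averaged over the 6 samples, 139 of 155 Hox regions lay below 20%, which is 89.7% (95% exact binomial interval 83.8% to 94.0%, counting regions, which are not independent). Of the remaining 16 regions, 14 lay between 20% and 80% and 2 above 80%. Over the autosomes outside the windows, 42.5% of regions lay below 20% and 35.9% above 80%. The Hox regions were not all at the floor: 95 of them (61.3%) were below 5% and 44 (28.4%) between 5% and 20%, where other autosomal regions had 36.3% and 6.17%. These shares are descriptions, since the assay and the CpG content of the windows set which DNA is read.

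The low regions lay in long runs, drawn in the plot of region levels along the clusters. In the Hoxa window, 35 neighbouring covered regions with 283 cytosines in all had mean levels below 20% over 49.15 kb, chr6:52161865-52211009, up to the last listed cytosine of the window. Their median level was 1.83% and the highest 17.2%. In the Hoxc window a run of 16 regions covered 60.02 kb, chr15:102806281-102866302, with a median of 4.27%. In the Hoxd window a run of 23 regions covered 41.1 kb, chr2:74495649-74536751, with a median of 4.10%. In the Hoxb window the longest run had 12 regions over 34.87 kb, chr11:96138794-96173662, with a median of 3.16%. The order of the 4 lengths turned with the read minimum: with at least 20 reads per region and sample, the longest runs were 49.15 kb in Hoxa, 70.93 kb in Hoxb, 113.7 kb in Hoxc and 41.82 kb in Hoxd. A run means only that no covered region inside it averaged 20%. Inside the runs given by position above, single cytosines at 20% or more were also counted, with lone ones and those of thinly covered regions. They were 8 of 319 in Hoxa, 4 of 134 in Hoxb, 14 of 133 in Hoxc and 5 of 211 in Hoxd. Of these, 0 were above 80%. All runs of at least 3 regions together spanned 49.15 kb in Hoxa (1 run), 105.6 kb in Hoxb (5 runs), 102.5 kb in Hoxc (2 runs) and 65.89 kb in Hoxd (4 runs). In the shorter Hoxb runs, by position, 1 of 41, 14 of 50, 5 of 41 and 1 of 33 cytosines were at 20% or more. In the shorter Hoxc run 8 of 126 were, and in the shorter Hoxd runs 0 of 35, 2 of 73 and 3 of 48. In the Hoxb run chr11:96180405-96202282, of 3 regions and 21.88 kb, 2 cytosines were above 80%. With a limit of 10% in place of 20%, the longest runs fell to 19.34 kb in Hoxa, 21.88 kb in Hoxb, 24.36 kb in Hoxc and 22.39 kb in Hoxd. The Hoxb one is the run of 3 regions just named.

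**Figure D1:**
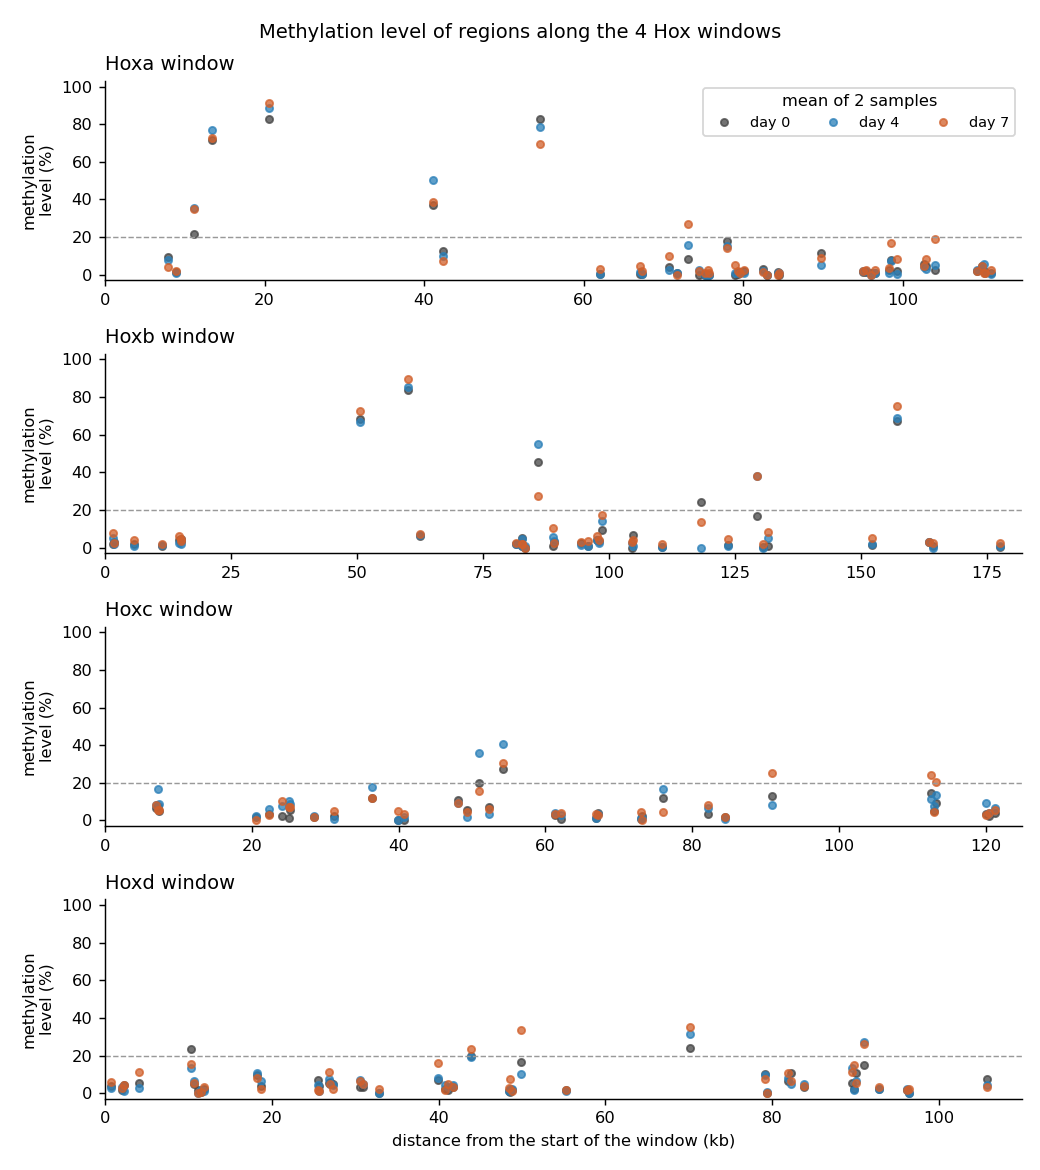
Methylation level (%, mean of 2 samples per day) of each covered region against its distance from the start of the Hoxa, Hoxb, Hoxc and Hoxd windows (kb), with 20% as a dashed line. Points above 60% are found in the Hoxa and Hoxb windows alone, and most regions of all 4 windows lie under the line on each day.

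Among covered regions, mean levels above 60% were found at a few places in the Hoxa and Hoxb windows and at none in Hoxc and Hoxd. At the low-coordinate end of the Hoxa window, the end nearer Hoxa2 in the RefSeq order, 5 of 8 covered regions stood at 20% or more. The most methylated of them, chr6:52120471-52120606 (5 cytosines), had levels of 84.1% and 81.7% on day 0, 89.3% and 87.7% on day 4 and 91.7% and 91.3% on day 7. The last one before the long low run, chr6:52154498-52154653 (15 cytosines), had 82.9% and 82.6% on day 0, 87.7% and 69.9% on day 4 and 67.7% and 71.2% on day 7. It averaged 77.0% over the 6 samples, and the next covered region, chr6:52161865-52162190, averaged 1.38%. No covered region lay between them.

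In the Hoxb window the methylated covered regions lay at several places. The 5 kb tiles, given below, also place methylation where no region was covered. The most methylated, chr11:96109940-96110258 (10 cytosines), had 88.2% and 79.7% on day 0, 88.0% and 82.5% on day 4 and 87.6% and 92.1% on day 7. Another, chr11:96207104-96207394 (10 cytosines), stood at 67.9% and 66.9%, 66.5% and 70.8%, and 74.8% and 76.1% in the same order. The next, chr11:96100565-96100673 (4 cytosines), averaged 69.4%. The longest low run of Hoxb was bounded by 2 regions of intermediate level. On its low-coordinate side, chr11:96135976-96136010 (3 cytosines) had 48.5% and 42.6% on day 0, 50% and 60% on day 4 and 28.1% and 26.7% on day 7, on 15 to 68 reads. On the other side, chr11:96179319-96179352 (4 cytosines) ranged from 15.6% to 58.3% over the 6 samples, on 12 to 52 reads.

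The Hoxc and Hoxd windows had no region above 80% and only 6 of 20% or more. In Hoxc these were chr15:102799146-102799250, which averaged 32.7% and preceded the longest low run, and chr15:102796002-102796041, which averaged 23.8%. In Hoxd, chr2:74565040-74565191 had the highest mean, 30.1%, and ranged from 20.0% to 39.5% over the samples. The region after the Hoxd low run, chr2:74538897-74538956, averaged 20.8% and lay just past the limit, as did chr2:74544790-74544842 at 20.1% and chr2:74585898-74586042 at 22.9%. Just inside the limit, the highest were chr2:74505307-74505337 at 17.6%, chr6:52172984 at 17.2% and chr15:102857370-102857546 at 16.5%.

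The lone cytosines, read outside any region, had different shares below 20% in the 4 windows, given here as counts without a test. In the Hoxc window 48 of 54 lone cytosines (88.9%) were below 20%, and in the Hoxd window 40 of 51 (78.4%). In the Hoxa window 19 of 36 (52.8%) and in the Hoxb window 41 of 82 (50%) were. Over the other autosomes, where lone cytosines are mostly methylated, 10.9% of 229826 were below 20%. Inside regions the shares were closer, at 89.9% of 1262 Hox cytosines against 57.0% of other autosomal ones. Above 80% there were 25 cytosines in the Hoxa window and 20 in the Hoxb window, and 0 of 293 in Hoxc and 0 of 416 in Hoxd. The highest shares in these 2 windows that such zeros allow were not estimated, since cytosines of 1 fragment share reads.

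**Figure D2:**
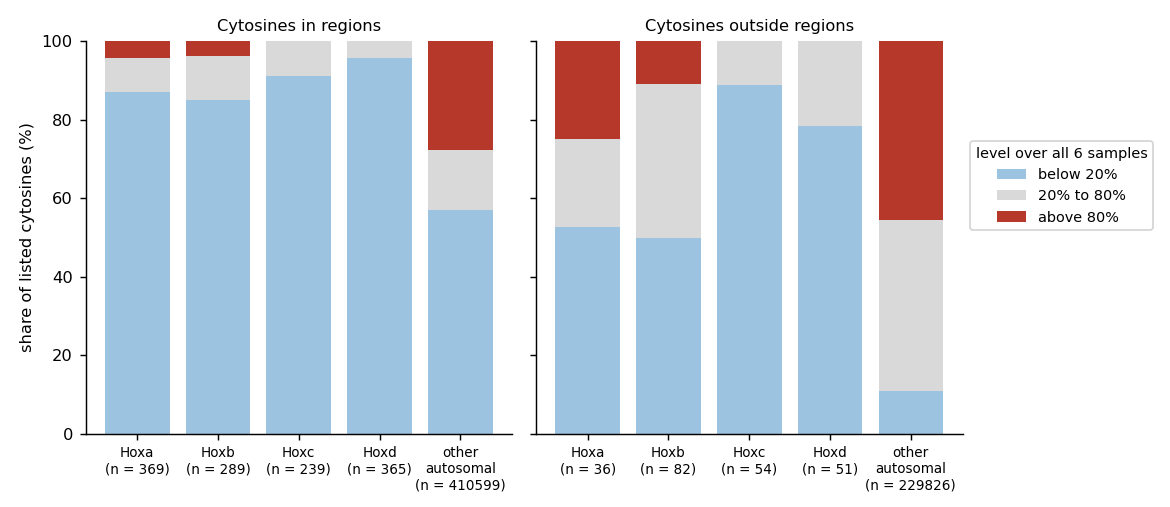
Share of listed cytosines (%) by their level over all 6 samples, for cytosines in regions (left) and lone cytosines (right), in each Hox window and over the other autosomes. Cytosines below 20% make up 88.9% of the lone cytosines in Hoxc and 50% in Hoxb, against 10.9% elsewhere, and the Hoxc and Hoxd bars hold no cytosine above 80%.

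The order of Hoxc and Hoxd differed between these counts: inside regions, 95.9% of 365 Hoxd cytosines and 91.2% of 239 Hoxc cytosines were below 20%, against 87.0% of 369 in Hoxa and 85.1% of 289 in Hoxb. Tiles of 5 kb pool all cytosines in fixed steps. Of 76 covered Hox tiles, 62 (81.6%) were below 20%, against 22.1% of 59424 autosomal tiles. In Hoxc all 18 were below 20%, in Hoxd 16 of 17, in Hoxa 12 of 17 and in Hoxb 16 of 24. The median tile level was 4.33% in Hoxc, 4.59% in Hoxd, 5.43% in Hoxa and 8.33% in Hoxb. All covered Hoxb tiles from chr11:96080001 to chr11:96130000 were above 20%. In order of position they averaged 69.5%, 78.3%, 34.55%, 73.4%, 56.7% and 39.5%, on 3 to 14 cytosines each. No covered region lay between chr11:96065140 and chr11:96100565. The tile from chr11:96125001, at 39.5%, lay inside a low run of Hoxb regions.

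Mean levels of the clusters moved little over the culture. The Hoxa mean over 43 regions was 9.97% and 9.16% on day 0, 10.6% and 9.80% on day 4 and 11.7% and 11.1% on day 7. The Hoxb mean over 35 regions was 10.95% and 10.68%, 11.68% and 10.75%, and 11.41% and 13.92% in the same order. The Hoxc mean over 34 regions was 6.66% and 5.07%, 8.33% and 8.21%, and 9.07% and 6.01%. The Hoxd mean over 43 regions was 5.69% and 5.89%, 6.34% and 5.66%, and 7.57% and 7.38%. From day 0 to day 7 the means were higher by 1.81 points in Hoxa, 1.85 in Hoxb, 1.67 in Hoxc and 1.68 in Hoxd. The day 0 and day 7 samples did not overlap in Hoxa, Hoxb and Hoxd but did in Hoxc. A rise was not particular to the clusters. Over all autosomal regions outside the windows, the means were 45.63% and 44.17% on day 0, 47.09% and 45.77% on day 4 and 47.74% and 46.86% on day 7. Both day 0 samples there lay below all day 4 and day 7 samples. With 2 samples against 2, the two-sided exact permutation test cannot go below p = 0.333. It gave 0.333 for day 7 against day 0 in Hoxa, Hoxb and Hoxd and 0.667 in Hoxc, so none of these differences could pass a threshold. From day 0 to day 4 the difference was 2.40 points in Hoxc, 0.65 in Hoxa, 0.40 in Hoxb and 0.20 in Hoxd, and of these only the Hoxc samples did not overlap (exact permutation p = 0.333).

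The few methylated regions weigh on these means, so the 139 regions below 20% were also averaged alone. They stood at 3.87% ± 0.143 (SD, n = 2) at day 0, 4.05% ± 0.394 on day 4 and 5.29% ± 0.452 on day 7. Both day 7 samples, at 5.61% and 4.97%, lay above the other 4, which ran from 3.77% to 4.33%. The same was seen in the other autosomal regions below 20%, at 2.23% ± 0.105, 2.27% ± 0.101 and 3.52% ± 0.104, and on mitochondrial DNA, given above. Their part in the Hox difference was not tested. The 44 Hox regions of 5% to 20% averaged 7.97% ± 0.997, 8.50% ± 0.367 and 10.6% ± 0.259, and the 95 below 5% averaged 1.97% ± 0.252, 1.99% ± 0.406 and 2.85% ± 0.542. By cluster, the regions below 20% went from 3.04% ± 0.0769 on day 0 to 4.78% ± 0.104 on day 7 in Hoxa and from 3.21% ± 0.496 to 4.67% ± 0.795 in Hoxb. In Hoxc they went from 4.76% ± 1.18 to 6.57% ± 1.98, and in Hoxd from 4.46% ± 0.000756 to 5.22% ± 0.499. The 2 day 0 samples of Hoxd were nearly equal. The 14 intermediate Hox regions averaged 38.1% ± 2.58 on day 0, 45.3% ± 0.887 on day 4 and 42.4% ± 1.67 on day 7. Intermediate regions of the other autosomes averaged 61.3% ± 2.35, 64.0% ± 1.96 and 65.1% ± 1.36 in the same order.

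**Figure D3:**
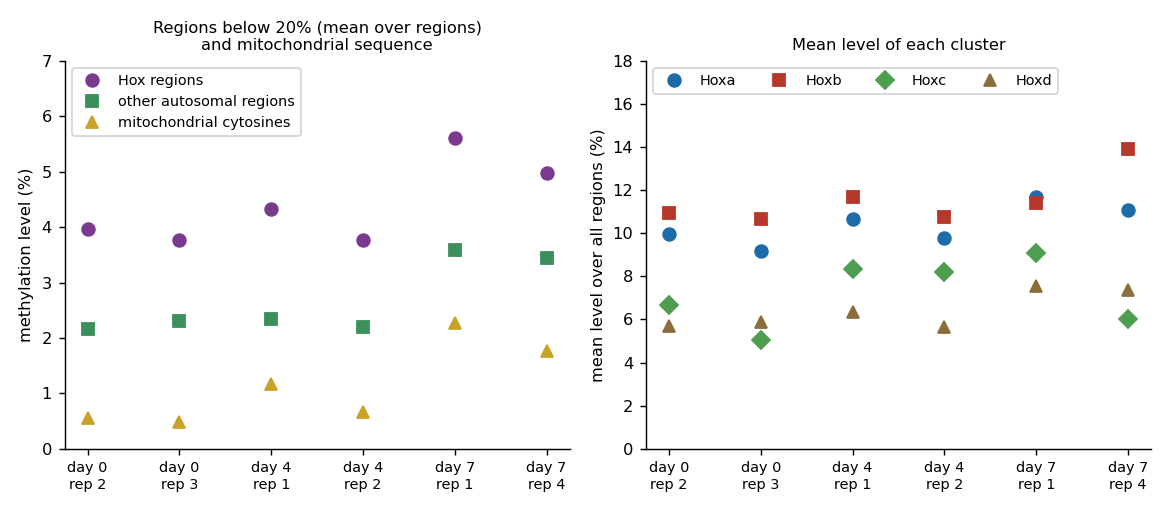
Left: mean methylation level (%) in each sample of Hox regions below 20%, of other autosomal regions below 20% and of mitochondrial cytosines. Right: mean level (%) over all covered regions of each cluster in each sample. All 3 series on the left are highest in the 2 day 7 samples. The clusters keep Hoxa and Hoxb above Hoxc and Hoxd in each sample.

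Single regions were compared with edgeR's likelihood ratio test on methylated and unmethylated counts, in 1 model of all 6 samples, with Benjamini-Hochberg adjustment over all 56105 tested regions. Calls needed both an adjusted p below 0.05 and group means at least 20 percentage points apart. No Hox region of 154 tested was called in any comparison. A group mean under 20% cannot fall by 20 points, so most Hox regions could be called only by rising. Of the 155, 1 had no methylated read. The call rates over autosomal regions of all levels were also low. They were 0.00181% between days 0 and 4, 0.102% between days 4 and 7 and 0.132% between days 0 and 7. At an unadjusted p under 0.05 there were 10 Hox regions for day 4 against day 0 (6 higher at day 4), 19 for day 7 against day 4 (17 higher at day 7) and 19 for day 7 against day 0 (all 19 higher at day 7). The autosomal rates at that limit were 6.59%, 10.8% and 12.3%. As shares of the 154, the Hox counts are close to these rates. The split by direction was not counted for autosomal regions at this limit, and most Hox regions are too low to fall far. Other autosomal regions below 20% also averaged higher at day 7, at 3.52% against 2.23% on day 0. edgeR's quasi-likelihood test also called 0 Hox regions in each comparison, with 7, 11 and 10 at an unadjusted p under 0.05, where 3.36%, 6.5% and 7.53% of autosomal regions were. limma called 0 as well, with 10, 19 and 15 at that limit, where 4.3%, 10.6% and 12.3% of autosomal regions were. No tile of 76 and no single cytosine of the 29 with 10 reads in every sample was called in any comparison. Tiles at an unadjusted p under 0.05 numbered 2, 9 and 9 in the same order of comparisons, where 6.78%, 9.4% and 11.8% of autosomal tiles were, and 0.0202%, 0.16% and 0.278% of them were called. Cytosines at that limit numbered 3, 4 and 4 of 29, where 3.71%, 6.1% and 7.41% of autosomal ones were, and 0%, 0.107% and 0.0874% of them were called. As shares of the 29 these counts lie above the autosomal rates. The 29 are few, and many are close neighbours that can share reads, so nothing is read from this.

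The samples of 2 groups often did not overlap, in the Hox windows as elsewhere. For day 7 against day 0, 39 of 155 Hox regions (25.2%) were higher in both day 7 samples than in both day 0 samples, where autosomal regions had 29.1%, and 11 were lower, where they had 6.93%. Among regions below 20%, 34 of 139 Hox regions (24.5%) were higher, against 29.8%, and 8 were lower, against 4.35%. For day 7 against day 4, 40 Hox regions were higher against 23.7%, which is 25.8%, and 9 were lower against 10.2%. Of those below 20%, 37 of 139 (26.6%) were higher against 29.3% and 6 (4.32%) were lower against 4.5%. For day 4 against day 0, 27 were higher (17.4%) against 20.5%, and 15 were lower (9.68%) against 10.2%. Of those below 20%, 19 (13.7%) were higher against 12.3% and 15 (10.8%) lower against 11.1%. Some of these Hox shares lay above the autosomal ones and some below. By cluster, day 4 against day 0 had 11 of 34 higher in Hoxc (32.4%) and 8 of 43 in Hoxd (18.6%). In Hoxb 4 of 35 were higher (11.4%) and in Hoxa 4 of 43 (9.30%), where autosomal regions had 20.5%. Lower were 4 in Hoxc (11.8%), 5 in Hoxd (11.6%), 3 in Hoxb (8.57%) and 3 in Hoxa (6.98%), against 10.2%. Of 14 intermediate Hox regions, 7 (50%) were higher on day 4 than on day 0 and 0 were lower. Intermediate autosomal regions had 25.3% and 11%. For day 7 against day 0, 4 of the 14 were higher (28.6%) against 27.7%, and 3 were lower (21.4%) against 9.05%. For day 7 against day 4, 2 were higher (14.3%) against 20.4%, and 3 were lower (21.4%) against 14.3%.

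One Hoxd region differed at day 7 by adjusted p, below the 20 point minimum. It is chr2:74584719-74584826, with 14 cytosines and 95 to 190 reads per sample. Its level was 2.63% and 1.69% on day 0, 0.820% and 2.56% on day 4, and 20.4% and 9.47% on day 7. The first 4 samples lay at or below 2.63% and both day 7 samples lay above them, though the day 7 pair differed from each other by more than 10 points. The 95% Wilson intervals were 13.7% to 29.2% and 5.06% to 17.0% on day 7 and reached no higher than 6.41% in the other samples. They cover counting error only. They also take counts of 1 read at several cytosines as independent, so they can be too narrow. Day 7 was 12.77 points above day 0 (edgeR likelihood ratio test, adjusted p = 0.0173) and 13.24 points above day 4 (adjusted p = 0.0137). By adjusted p alone, 0.355% of autosomal regions passed between days 0 and 7 and 0.252% between days 4 and 7. The adjusted p was 0.0925 and 0.0803 with the quasi-likelihood test, 0.245 and 0.233 with limma, and 0.078 and 0.0792 with autosomes fitted alone. Without day 7 replicate 1, edgeR's adjusted p was 0.292 and 0.258 and the differences were 7.31 and 7.78 points. Without day 7 replicate 4, they were 18.23 and 18.7 points (adjusted p = 0.00737 and 0.00529). The difference therefore rests mainly on replicate 1.

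One Hoxa region passed by adjusted p in day 7 against day 0, and it was chosen after its values were seen because its shallowest sample had 17 reads. It is chr6:52203910-52204102. Its level was 1.44% and 3.54% on day 0, 7.41% and 2.78% on day 4 and 14.0% and 23.5% on day 7. Both day 7 samples were above the others. The second of them is 4 methylated of 17 reads, with a Wilson interval of 9.56% to 47.3%, under the limits given above. Day 7 was 16.25 points above day 0 (edgeR likelihood ratio test, adjusted p = 0.0494). The adjusted p was 0.209 with the quasi-likelihood test, 0.213 with limma and 0.113 with autosomes alone, and 0.116 to 0.403 when any 1 library of these groups was left out. About 1 kb away, chr6:52202819-52203031 (9 cytosines) had 6.67% and 2.11% on day 0 and 9.70% and 7.46% on day 7, 4.19 points apart (edgeR adjusted p = 0.556). Its first cytosine, chr6:52202819, also chosen after its values were seen, had 0 of 21 and 0 of 17 methylated reads on day 0. It stood at 11.1% and 0% on day 4 and at 25.0% and 40% on day 7, on 20 and 10 reads. Its adjusted p was 0.0512 with edgeR and 0.0162 with Fisher's exact test on pooled reads, which takes no account of the spread between samples, and over its alternatives the range was 0.0162 to 0.644. The other tested cytosine nearby, chr6:52202683, differed the other way, at 14.3% and 5.88% on day 0 and 0% and 0% on day 7 (-10.08 points, edgeR adjusted p = 0.594). The 5 kb tile that holds both, from chr6:52200001, stood at 4.13% and 3.34% on day 0, 4.42% and 2.85% on day 4 and 10.9% and 9.01% on day 7. It had the smallest p of all Hox tiles for day 7 against day 4, with an adjusted p of 0.224 by edgeR.

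**Figure D4:**
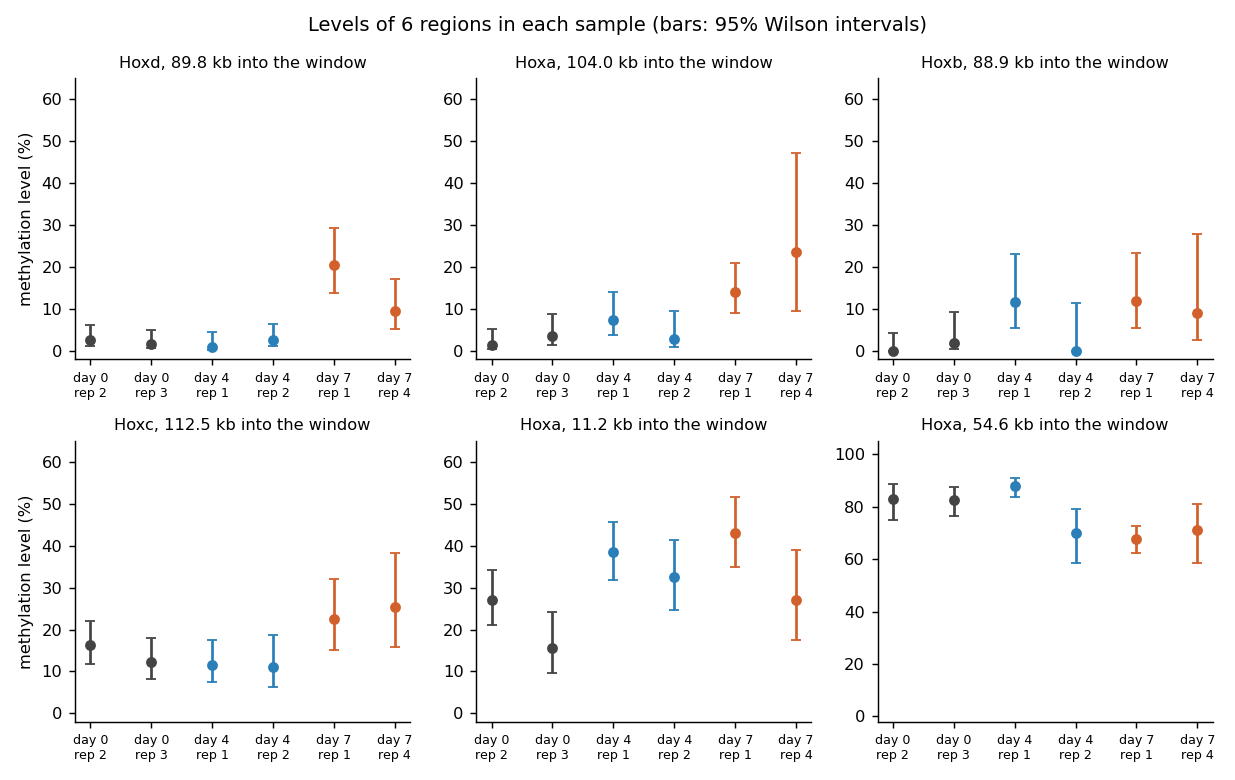
Methylation level (%) in each sample of 6 Hox regions, named by cluster and distance from the window's start, with 95% Wilson intervals that cover counting error only. The first panel is the Hoxd region at 20.4% and 9.47% on day 7, the second the Hoxa region at 14.0% and 23.5%. The last panel has a wider axis and shows the methylated Hoxa region next to the long low run.

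Other regions named by rule for day 7 against day 0 did not pass. The rule took, in each cluster, the 2 largest differences in each direction among regions of 20 or more reads per sample whose groups do not overlap. In Hoxb, chr11:96138794-96138918, the first region of the long low run, had 0% and 1.75% on day 0, 11.5% and 0% on day 4 and 11.8% and 9.09% on day 7. The 0% on day 0 was 0 of 86 reads, counted per cytosine, which allows up to 3.49% if these counts are independent. Day 7 was 9.55 points above day 0 (edgeR, adjusted p = 0.113), and 1 of the day 4 samples was as high as day 7. In Hoxc, chr15:102769007-102769181 had 3.08% and 1.57% on day 0, 7.48% and 7.81% on day 4 and 10.8% and 9.38% on day 7. All 4 cultured samples were above both day 0 samples, with differences of 5.32 points on day 4 (adjusted p = 0.727 by edgeR) and 7.78 on day 7 (adjusted p = 0.235). Also in Hoxc, chr15:102857370-102857546 stood at 16.3% and 12.3% on day 0, 11.6% and 11% on day 4 and 22.5% and 25.5% on day 7, with an edgeR adjusted p of 0.551 between days 0 and 7 and 0.437 between days 4 and 7.

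In Hoxd, chr2:74585898-74586042 had 12.9% and 17.5% on day 0, 25.6% and 29.3% on day 4 and 26.9% and 25.0% on day 7. The cultured samples were again all above day 0, and edgeR's adjusted p was 0.820 on day 4 and 0.583 on day 7. In Hoxa, chr6:52178999-52179041 was at 0% in both day 0 samples and at 6.00% and 4.00% on day 7 (edgeR adjusted p = 0.311). The day 0 values were 0 of 26 and 0 of 46 reads, which allow up to 11.5% and 6.52% if counts are independent. The methylated regions chr6:52120471-52120606 in Hoxa and chr11:96207104-96207394 in Hoxb, whose values are given above, were higher at day 7 by 8.60 and 8.08 points (adjusted p = 0.562 and 0.712).

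Of the 11 Hox regions lower on day 7, those with at least 20 reads in every sample were led by chr6:52154498-52154653, the methylated region before the Hoxa low run. It stood at 82.8% ± 0.194 (SD, n = 2) at day 0 and 69.4% ± 2.48 on day 7 (a difference of -13.31 points). Its edgeR adjusted p was 0.427, and its day 4 samples, at 87.7% and 69.9%, spanned both groups. Over its alternatives the adjusted p ran from 0.00283, with Fisher's exact test on pooled reads, to 0.684. The others that the rule named were chr6:52182415-52182650 in Hoxa, chr11:96132775-96132811 in Hoxb, chr15:102797220-102797344 in Hoxc and chr2:74520506-74520556 and chr2:74520670-74520716 in Hoxd. Their differences ran from -1.26 to -5.29 points and their edgeR adjusted p from 0.576 to 0.894. All were already at or below 10.0% on day 0.

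Between day 4 and day 7, no region named by the rule passed edgeR's test except the Hoxd region above. In Hoxa, chr6:52199262-52199315 had 0% and 3.45% on day 0, 0% and 1.01% on day 4 and 14.3% and 2.78% on day 7 (8.03 points, edgeR adjusted p = 0.0686). The 2 day 7 samples differed by more than the groups did, and without day 7 replicate 1 the difference was 2.27 points. Its adjusted p was 0.0454 over regions of at least 20 reads, 0.0424 over regions of at least 5 cytosines and 0.0245 without day 7 replicate 4, within a range of 0.0111 to 0.688. Also in Hoxa, chr6:52170668-52170769 was higher at day 7 by 7.54 points. In Hoxc, chr15:102835861-102835935 had 4.48% and 12.2% on day 4 and 37.8% and 12.5% on day 7. It was higher by 16.78 points (edgeR adjusted p = 0.262), but by 4.14 points without day 7 replicate 1, and its day 0 samples, at 19.0% and 6.38%, overlapped both groups. The remaining higher regions were chr11:96055643-96055743 and chr11:96207104-96207394 in Hoxb and chr2:74498929-74499107 in Hoxd, at 3.47, 6.79 and 8.54 points. The lower ones were chr6:52141053-52141102, an intermediate Hoxa region, at -11.88 points, chr15:102767270-102767375 and chr15:102857979-102858054 in Hoxc at -3.41 and -3.36 points, and chr2:74520506-74520556 in Hoxd at -2.60 points. The edgeR adjusted p of these 8 regions, with chr6:52170668-52170769 counted, ran from 0.459 to 0.804.

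For day 4 against day 0, the Hoxa region chr6:52111033-52111279 (11 cytosines) had the largest difference by this rule. It stood at 27.2% and 15.6% on day 0, 38.5% and 32.5% on day 4 and 43.1% and 27.0% on day 7. Both day 4 samples were above both day 0 samples, by 14.11 points (edgeR adjusted p = 0.789), and the day 7 pair spanned a range that overlapped both. In Hoxb, chr11:96181457-96181591 (11 cytosines) had 0.752% and 0.957% on day 0 and 5.10% and 5.36% on day 4, on 133 to 353 reads each. These pairs were tight, at 4.37 points apart (edgeR adjusted p = 0.517), and the day 7 samples stood at 2.84% and 13.6%. In Hoxc, chr15:102781212-102781424 was 5.98 points higher, and in Hoxd, chr2:74525512-74525673 was 3.71 points higher and chr2:74505307-74505337 was lower, at 24.3% and 22.8% against 13.8% and 13.5% (-9.95 points). None of these passed.

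The other lower regions on day 4 were chr6:52189695-52189837 and chr6:52179809-52180375 in Hoxa, chr11:96132775-96132811 and chr11:96145757-96145990 in Hoxb, chr15:102794261-102794398 and chr15:102797220-102797344 in Hoxc and chr2:74520670-74520716 in Hoxd. Their differences ran from -0.24 to -6.17 points. One region outside the rule, chosen after its values were seen, was called by Fisher's exact test on pooled reads alone. It is chr11:96168320-96168367 in Hoxb (3 cytosines), at 22.2% and 26.7% on day 0, 0% and 0% on day 4 and 2.56% and 25.0% on day 7, on 15 to 39 reads. Its adjusted p was 0.0316 by Fisher's exact test and 0.254 by edgeR. Day 7 replicate 4 stood with day 0 and replicate 1 with day 4. Fisher's exact test, as an alternative, also put the adjusted p under 0.05 for some regions named by the rule: it gave 0.0468 for chr6:52111033-52111279 and 0.0308 for chr11:96181457-96181591 between days 0 and 4, 0.0173 for chr15:102835861-102835935 between days 4 and 7, and 0.0307 for chr11:96138794-96138918 between days 0 and 7. Their highest adjusted p over the alternatives was 1, 1, 0.826 and 0.564.

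Besides chr6:52203910-52204102 and chr11:96168320-96168367, described above, some regions under 20 reads in a sample, outside the rule and chosen after their values were seen, had larger differences than any it named in the same comparison and direction. The Hoxb region chr11:96135976-96136010, whose levels are given above, was lower on day 7 than on day 4 (-27.6 points, edgeR adjusted p = 0.354) and than on day 0 (-18.17 points, adjusted p = 0.522). The Hoxc region chr15:102796002-102796041 had 19.6% and 20.2% on day 0, 29.4% and 42.3% on day 4 and 12.5% and 18.8% on day 7. Its day 4 samples were above the other 4, by 15.96 points against day 0 (edgeR adjusted p = 0.807), and day 7 stood -20.23 points from day 4 (adjusted p = 0.375). The Hoxd region chr2:74544790-74544842 had 17.8% and 15.6% on day 0, 17.0% and 3.45% on day 4 and 24.7% and 42.1% on day 7. Day 7 was 23.16 points above day 4 (edgeR adjusted p = 0.362) and 16.72 above day 0 (adjusted p = 0.531). In Hoxa, chr6:52172984-52173138 had 12.9% and 4.11% on day 0 and 15.45% and 38.9% on day 7, 18.68 points apart (edgeR adjusted p = 0.358). In Hoxb, chr11:96179319-96179352 was 21.01 points higher on day 4 than on day 0 (edgeR adjusted p = 0.757). Each of these 5 regions had 12 to 19 reads in its shallowest sample, and the adjusted p of none was below 0.05 in any alternative run, with a lowest value of 0.0589.

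By tiles, the smallest p for day 4 against day 0 belonged to the Hoxc tile from chr15:102765001, which had 1.73% and 2.74% on day 0 and 4.39% and 5.88% on day 4, and to the Hoxb tile from chr11:96090001, with 80% and 64.7% against 90.2% and 86.2% on 3 cytosines. Their edgeR adjusted p was 0.715 and 0.729. For day 7 against day 4, the Hoxd tile from chr2:74540001 came next to the Hoxa tile given above, at 3.46% and 1.19% against 6.42% and 7.51% (adjusted p = 0.242). For day 7 against day 0, the Hoxa tile from chr6:52170001 went from 3.01% and 3.10% to 7.41% and 11.6% (adjusted p = 0.158) and the Hoxb tile from chr11:96180001 from 7.75% and 3.93% to 11.5% and 19.8% (adjusted p = 0.165). These 5 tiles were picked by their p, a choice that favours groups that do not overlap. The groups compared did not overlap in any of them, and the share over all tiles was not counted. No difference passed the adjusted test.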

How the data were processed

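Reduced representation bisulfite sequencing was done on 6 samples, 2 each at day 0, day 4 and day 7, grouped by title and day in culture. Per the submitters' processing notes, Bismark, Bowtie2 and the build mm9 were used. Versions and trimming are not stated there. For every cytosine, the deposited table gives its methylated fraction and its counts of methylated and unmethylated reads, per the file headers. Levels were computed from the deposited counts and not from the fraction. There were 0 sample columns left unused.

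Regions, 5 kb tiles and cytosines, each of 10 or more reads per sample, were fitted over the whole table with edgeR 4.0.16 in R 4.3.3 (negative binomial, dispersion without trend, likelihood ratio test), all 6 samples in 1 model. Calls needed an adjusted p below 0.05 and 20 points (10 for tiles). The code was tested on simulated data. Cluster means used exact permutation tests. Alternatives were the quasi-likelihood test, limma 3.58.1 (pseudocount 0.5), Fisher's exact test, other minimum reads, differences, region rules, tile sizes and class limits, autosomes alone, the 2 groups alone, and leaving out each replicate. Named regions were the 2 largest non-overlapping differences in each direction per cluster and comparison (at least 20 reads), those bounding the longest low run, the 2 deepest intermediate regions per cluster, the 2 tiles with the smallest p per comparison, and a few stated exceptions. The members, lists and rules were chosen with earlier results of these data known. Replicates differed over Hox regions by more than independent counts would (chi-square over its degrees of freedom 1.46, 1.32 and 1.60 for days 0, 4 and 7). They were counted separately.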

Additional observations from a re-analysis of the deposited data

How the results depend on the processing

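No paired analysis was possible because the groups compared share fewer than 2 replicate numbers. The count of Hox calls stayed at 0 under every alternative run except these. With no minimum difference, or with 10 points, 1 Hox region was called between days 4 and 7 and 2 between days 0 and 7. On pooled reads, Fisher's exact test called 1 region for day 4 against day 0 and 1 cytosine for day 7 against day 0. Leaving out replicates gave 0 to 1 cytosines for day 7 against day 0, the 1 without day 7 replicate 1.

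The share of Hox regions below the class limit was 81.29% with 10% and 61.29% with 5%, the second limit chosen after seeing the data. With 10%, the longest runs were 19.34 kb in Hoxa, 21.88 kb in Hoxb, 24.36 kb in Hoxc and 22.39 kb in Hoxd. With at least 20 reads, which drops regions, they were 70.93 kb in Hoxb and 113.7 kb in Hoxc. Leaving out replicates gave 40.34 to 49.15 kb in Hoxa, 42.46 to 60.02 kb in Hoxc and 41.1 to 54.66 kb in Hoxd.

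The Hoxc difference of day 7 against day 4, -0.73 points, was 0.63 with pooled reads and 1.43 with at least 20 reads, and ran from -2.26 to 1.37 without single replicates. For day 4 against day 0, leaving out replicates gave -0.063 to 0.87 in Hoxb, -0.14 to 0.54 in Hoxd and -0.10 to 0.46 in the Hox regions below 20%. The causes were not tested. The depth of day 7 replicate 4, with a median of 24 reads per Hox region, limits what small differences could be seen.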
